A study of Mus musculus with 6 samples.

Results

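RNA polymerase II transcribes protein-coding genes, and it starts at a promoter only together with general factors and, at most genes, the Mediator complex. TFIIA and TFIIB join the promoter complex that TFIID begins, TFIIF escorts the polymerase, TFIIE recruits TFIIH, and TFIIH opens the DNA and phosphorylates the tail of the largest polymerase subunit. Mediator bridges DNA-bound activators and the polymerase through its head, middle and tail modules, and its detachable kinase module regulates that contact. In embryonic stem (ES) cells Mediator is known for its occupancy of the enhancers of genes that keep cells pluripotent.

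The genes described here encode these complexes without TFIID. They were chosen by name: every probe whose gene symbol, current or by synonym, began with Polr2, Gtf2a, Gtf2b, Gtf2e, Gtf2f, Gtf2h or Med and a digit, or was Mnat1, Cdk7, Ccnh, Ercc2, Ercc3, Cdk8 or Ccnc. This gave 63 genes and 121 probes, of 18295 named genes and 41174 gene probes in all. There were 13 genes of RNA polymerase II, 18 of the general factors and 32 of Mediator. For 30 genes there was 1 probe and for 33 there were several, and a gene is represented by its brightest probe unless stated. Mbd4, which has an old synonym Med1, was not counted.

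The induced pluripotent stem (iPS) lines iPS1, iPS4 and iPS5 were made from OG2 mouse embryonic fibroblasts (MEFs). The fibroblasts received pMX retroviruses for Oct4, Sox2, Klf4 and c-Myc. With them came viruses for the TFIID subunits TBP, TAF13, TAF12, TAF11, TAF10, TAF9, TAF7, TAF6, TAF5, TAF4b, TAF4 and TAF3. GFP-positive colonies were picked after 12 days and expanded on irradiated MEF feeders with LIF, and OG2 ES cells, for which the labels name no virus, were grown in the same way. Each line was hybridised on 2 arrays of opposite dye against 1 pool of ES-cell RNA, which gave 6 arrays. None of the 63 genes was among the 16 transduced genes. The fibroblasts of all lines received viruses for both the reprogramming factors and the TFIID subunits, so their effects cannot be told apart. Which of these genes each line carried or still expressed from a virus was not examined. Each line came from picked colonies, and it counts as a single replicate here, since whether both arrays had RNA of their own is not in the labels. The labels list MEF as the cell type of the iPS channel. All values below are normalised log2 ratios of iPS over ES, 0 meaning equal signal, and a mean ± SD is over the 3 lines. In such bulk samples fewer cells of a type and less RNA per cell cannot be told apart.

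Of the gene probes, 47.4% to 87.1% were above background in the iPS channel and 47.8% to 83.7% in the ES channel, and the iPS5 arrays were the dimmest. All 12 pluripotency markers were above background in both channels of all 6 arrays; 2 were called higher in the iPS lines (Sall4 at 0.65 and Nanog at 0.65) and 3 lower (Zfp42 at -2.74, Fgf4 at -0.80 and Tdgf1 at -0.38), and their summed intensity, 21337 to 78329 in the iPS channel and 16744 to 95445 in the ES channel, was higher in iPS on 3 of 6 arrays. Pou5f1, the gene of Oct4, and Sox2 were also transduced, and signal from the viruses was not separated. Dppa5a was above 0 only with iPS RNA in Cy5 (0.31, 0.75 and 0.52, against -1.36, -1.44 and -0.02 in Cy3). Of 12 fibroblast markers 0 were called higher and 4 lower in the iPS lines. Their summed intensity was 1641 to 7432 in the iPS channel against 1955 to 10863 in the ES channel, lower in iPS on 6 of 6 arrays. The 5 primitive streak and mesoderm markers had a summed intensity of 344 to 2553 in the iPS channel and 311 to 530.1 in the ES channel. It was higher in iPS on 6 of 6 arrays, with 0 of 5 called in the mean of the lines. Set singly against the pool, 5 were called higher in iPS1, 4 in iPS4 and 2 in iPS5, and 5 of 5 differed among the lines. Of 6 primitive endoderm markers 0 were called in the mean of the lines, and 4 differed among the lines. Their sums were 468 to 1013 in the iPS channel and 427 to 946 in the ES channel. No marker of these lists stayed below background on every array.

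Setting the lines against the pool asked how far the transcription machinery of TFIID-assisted iPS lines departs from that of ES cells. Most members lay close to 0. Brightest probes of 60 of 63 genes were above background in both channels of all 6 arrays, the others being those of Med12l, Gtf2a1l and Ercc2. In the mean of the lines, 0 of 63 genes lay beyond 2-fold, and in a single line only Med1 did, at 1.04 in iPS4. Over the members the median log2 ratio was 0.07, with 61.9% above 0; over all 18295 genes it was -0.0049, with 47.8% above 0.

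A limma moderated test of the 3 line means against 0, with Benjamini-Hochberg adjustment over all probes and a threshold of 0.05, called 11 of 63 members (17.5%). Of all genes it called 10.2%, 5.21% higher and 4.95% lower. That background includes genes not above background: of the 11128 genes above background in both channels of all arrays 16.0% were called (8.21% higher, 7.77% lower). Of the 60 members that met this criterion 18.3% were. The share of called members was thus close to that of expressed genes. The 7 genes that rose were Med1, Gtf2f1, Polr2b, Gtf2b, Med10, Gtf2h5 and Polr2d, and the 4 that fell were Gtf2e2, Mnat1, Polr2c and Med27. By complex, 2 of 13 polymerase genes rose and 1 fell, 3 of 18 general factor genes rose and 2 fell, and 2 of 32 Mediator genes rose and 1 fell. The medians of these groups were 0.11, 0.12 and 0.06. The same sign on all 6 arrays was seen for 24 of 63 members (38.1%), against 29.9% of all genes; above background it was 38.3% of members and 38.5% of genes.

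**Figure D1:**
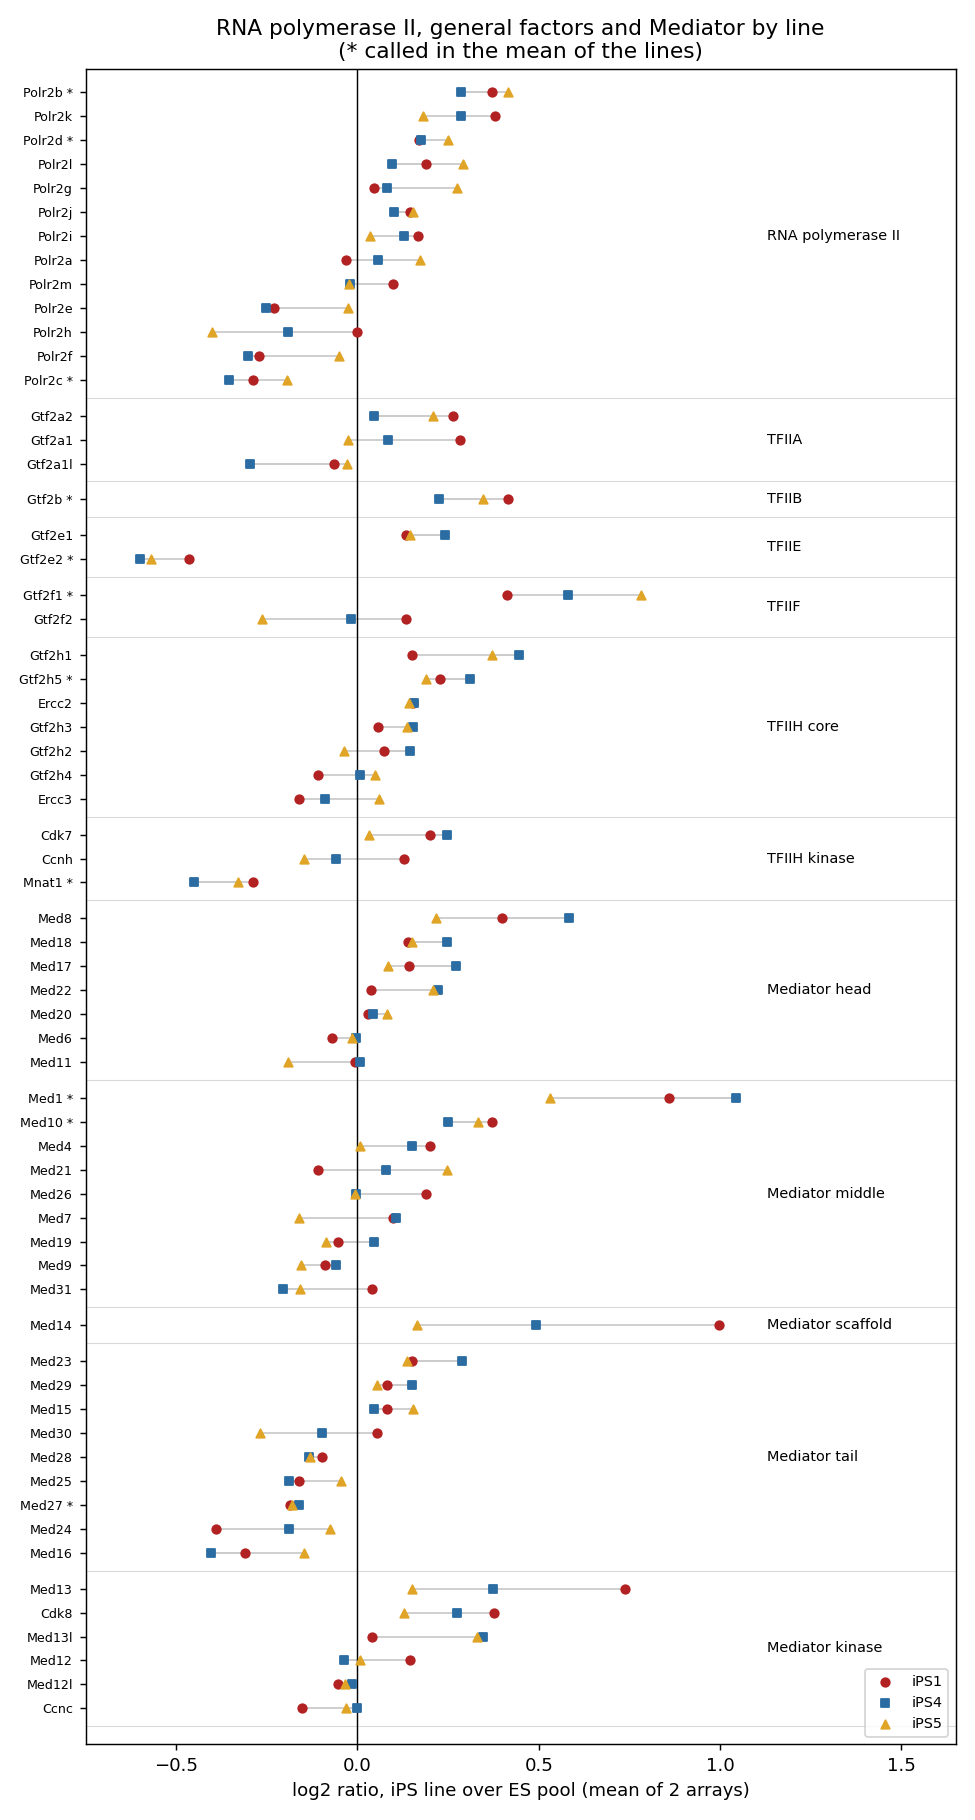
Log2 ratio of each iPS line over the ES pool (x axis) for the brightest probe of all 63 genes (y axis), grouped by complex; each symbol is the mean of the 2 arrays of a line and an asterisk marks the 11 genes called in the mean of the lines. Most symbols lie within 0.5 of 0, with Med1 at 1.04 in iPS4 and Med14 at 1.00 in iPS1 furthest to the right and Gtf2e2 at -0.60 in iPS4 furthest to the left.

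The calls of all 11 genes were lost without iPS1 (adjusted p 0.0657 to 0.151), without iPS4 (0.201 to 0.267), or when the pool was given the variance of a line (0.297 to 0.501), and 1 was left without iPS4 replicate 1 or without iPS5 replicate 1. Without iPS5, 7 of the 11 were kept (all but Gtf2b, Gtf2h5, Med27 and Polr2d) among 13 members called. The sizes moved less than the calls: Gtf2e2 stood at -0.58, -0.52 and -0.53 without iPS1, iPS4 and iPS5, and Med1 at 0.79, 0.69 and 0.95. With the log2 ratios the authors deposited, the same 11 genes were called in the same fit, 7 higher and 4 lower, against 12.5% of all genes (6.03% higher, 6.49% lower).

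Promoters of 53 of the 63 genes are in the RefSeq table of GRCm38.p6, and 4 are shown because the results turn on their genes: Med1 and Gtf2f1, the 2 called genes with the highest mean, Mnat1, the called gene with the lowest mean among those in the table, and Med14, the gene that differed most among the lines. Each line below gives the 250 bases upstream of 1 start of the gene, that of its entry used here, 5′ to 3′ on the gene's strand. Other starts were not examined, and a window can lie within a transcript that begins further upstream. They lie at chr11:98192907-98193156 (minus strand), chr17:57011289-57011538 (minus), chr12:73123467-73123716 (plus) and chrX:12761974-12762223 (minus), in this order. Capitals mark every match, on either strand, to the TATA box letters TATAAA, the CCAAT box letters CCAAT, the GC box letters GGGCGG, the ETS core letters CCGGAAG or the YY1 core letters ATGGCGGC.
Med1: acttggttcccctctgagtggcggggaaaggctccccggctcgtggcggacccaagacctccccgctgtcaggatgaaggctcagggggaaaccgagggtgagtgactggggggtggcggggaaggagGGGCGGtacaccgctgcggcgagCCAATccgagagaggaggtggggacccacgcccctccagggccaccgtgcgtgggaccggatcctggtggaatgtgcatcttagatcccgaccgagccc
Gtf2f1: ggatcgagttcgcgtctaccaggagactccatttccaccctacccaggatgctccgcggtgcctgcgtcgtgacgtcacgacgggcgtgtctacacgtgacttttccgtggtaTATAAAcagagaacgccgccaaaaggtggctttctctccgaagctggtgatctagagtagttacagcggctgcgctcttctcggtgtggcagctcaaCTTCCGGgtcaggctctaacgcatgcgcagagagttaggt
Mnat1: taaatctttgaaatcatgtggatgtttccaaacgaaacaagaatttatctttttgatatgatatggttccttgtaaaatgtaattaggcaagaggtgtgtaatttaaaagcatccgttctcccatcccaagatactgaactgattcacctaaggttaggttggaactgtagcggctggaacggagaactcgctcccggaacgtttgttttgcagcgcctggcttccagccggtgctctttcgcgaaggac
Med14: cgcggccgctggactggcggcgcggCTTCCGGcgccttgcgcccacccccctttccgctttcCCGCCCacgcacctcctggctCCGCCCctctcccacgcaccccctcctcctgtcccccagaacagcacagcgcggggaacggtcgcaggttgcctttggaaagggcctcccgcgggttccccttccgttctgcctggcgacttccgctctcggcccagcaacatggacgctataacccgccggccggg
In these windows Med1 had 1 GC box and 1 CCAAT box, Gtf2f1 1 TATA box and 1 ETS core, and Med14 2 GC boxes and 1 ETS core. The window of Mnat1 held none of these letters and had 43.2% G and C, against 68% in Med1, 56.8% in Gtf2f1 and 72% in Med14. Over the 53 members the GC box occurred in 60.4%, against 47.9% of 14652 measured genes in the table, and the ETS core in 18.9%, against 10.1%. The CCAAT box occurred in 34.0% of members and 35.9% of genes, the TATA box in 13.2% and 10.9%, and the YY1 core in 1.89% and 1.39%. A window was counted once for each motif. A letter match is a description of the window and not a binding site. The median G and C content was 58% over the members and 57.2% over the measured genes.

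Within RNA polymerase II, Polr2b rose and Polr2c fell. Polr2b encodes the subunit that forms the active centre together with the largest subunit. Its log2 ratio was 0.37 and 0.37 on the iPS1 arrays, 0.33 and 0.24 on the iPS4 arrays and 0.40 and 0.43 on the iPS5 arrays, against 0 for equality with the ES pool. All 6 arrays lay above 0 within a narrow range. The mean was 0.36 ± 0.0652 (n = 3, limma adjusted p = 0.0302), a 1.28-fold difference, and the other probe of the gene stood at 0.36 ± 0.0194 (0.0218).

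Polr2c, whose product nucleates assembly of the polymerase, was at -0.20 and -0.37 in iPS1, -0.29 and -0.42 in iPS4 and -0.39 and 0.00 in iPS5. The arrays lay below 0 except iPS5 replicate 2, which was at the level of the ES pool. The mean was -0.28 ± 0.0804 (adjusted p = 0.0441), and the call ended with no offset (0.0668), plain background subtraction (0.0523) and median centring (0.0734). Polr2d, a subunit of the stalk of the enzyme, was at 0.23 and 0.11 in iPS1, 0.27 and 0.08 in iPS4 and 0.17 and 0.33 in iPS5. It was above 0 on 6 of 6 arrays, with a mean of 0.20 ± 0.0441 (0.0484), a call that ended under the same 3 settings (0.132, 0.106 and 0.0844) and with arrays scaled (0.0717). In each line Polr2c and Polr2d were lower on the array with iPS RNA in Cy3 than on that with it in Cy5 and their dye terms passed the threshold (adjusted p = 0.0412 and 0.049). The opposite dyes cancel in a line mean, but not where an array of that line is left out. Among all members the dye term passed for 26 of 63, and among all genes for 4460 of 18295.

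The other 10 polymerase genes were not called. Polr2a, which encodes the catalytic subunit with the phosphorylated tail, was at 0.25 and -0.31 in iPS1, 0.28 and -0.17 in iPS4 and -0.01 and 0.36 in iPS5. In each line the array with iPS RNA in Cy5 was the higher, and the sign differed between arrays of a line. Its mean was 0.07 ± 0.102 (adjusted p = 0.472). Polr2k and Polr2l, small subunits that all nuclear polymerases share, stood at 0.28 (0.0534) and 0.19 (0.0961), and 3 other shared subunits, Polr2e, Polr2f and Polr2h, at -0.17, -0.21 and -0.20 (0.129 to 0.238). Polr2g, the partner of Polr2d in the stalk, stood at 0.13, Polr2j, the partner of Polr2c, at 0.13, Polr2i at 0.11 and Polr2m at 0.02.

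Among the general factors, TFIIF and TFIIE each had 1 subunit gene called and the other not. Subunits were not tested against each other. TFIIF has a large subunit, encoded by Gtf2f1, and a small one, encoded by Gtf2f2. Gtf2f1 was at 0.35 and 0.47 in iPS1, 0.53 and 0.63 in iPS4 and 0.81 and 0.75 in iPS5. All arrays were above 0, and the arrays of the 3 lines did not overlap. The mean of 0.59 ± 0.184 (adjusted p = 0.0396) is a 1.51-fold difference. The call ended with arrays scaled to a common spread (0.0721).

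Gtf2f2 was at 0.06 and 0.21 in iPS1, -0.16 and 0.12 in iPS4 and -0.18 and -0.35 in iPS5. Its sign thus differed between lines, and its mean of -0.05 ± 0.201 did not pass the test (adjusted p = 0.776). The mean was 0.07 when all 3 probes of the gene were averaged, and 0.06 without iPS5. In TFIIE, Gtf2e2, the gene of the small subunit, was the lowest of all members. It was at -0.39 and -0.54 in iPS1, -0.53 and -0.67 in iPS4 and -0.71 and -0.43 in iPS5, all below 0. The mean was -0.54 ± 0.0698 (adjusted p = 0.0209), or 0.686 of the ES signal, and this gene has 1 probe. The large subunit gene, Gtf2e1, stood at 0.17 ± 0.058 (0.0696).

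Gtf2b encodes TFIIB, which positions the polymerase over the start site. It was at 0.53 and 0.30 in iPS1, 0.24 and 0.21 in iPS4 and 0.30 and 0.39 in iPS5. Every array was above 0, and the mean was 0.33 ± 0.0959 (adjusted p = 0.0421). The call was lost when a gene's probes were averaged, because its other probe, near background, stood at 0.00. The TFIIA genes, whose products stabilise TBP on DNA, were not called: Gtf2a1 stood at 0.11, Gtf2a2 at 0.17 and Gtf2a1l, the germ-cell paralogue of Gtf2a1, at -0.13 on a probe not above background on all arrays.

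TFIIH consists of a core that holds helicases and a kinase module. Of the 7 core genes 1 rose, Gtf2h5, which encodes the smallest core subunit and is known for a role in DNA repair. Its ratio was 0.13 and 0.33 in iPS1, 0.19 and 0.44 in iPS4 and 0.29 and 0.09 in iPS5. The arrays were all above 0, each line being higher with iPS RNA in Cy3 (dye term adjusted p = 0.0166). The mean was 0.24 ± 0.0622 (0.0444). The call ended with no offset (0.0969), with plain subtraction (0.074) and with a gene's probes averaged (0.0785).

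The helicase genes did not pass. Ercc2 (XPD) was at 0.10 and 0.21 in iPS1, 0.15 and 0.16 in iPS4 and 0.17 and 0.12 in iPS5, above 0 on every array, with a mean of 0.15 ± 0.00756 (adjusted p = 0.0557). Its probe was not above background on all arrays, and its value depended on the background correction. It was 0.42 with no offset (0.0545) and 0.36 with plain subtraction (0.037, called), and it was also called with arrays scaled (0.0467). The fit on gene means called it too (0.0494), but Ercc2 has 1 probe and its mean stayed at 0.15. Ercc3 (XPB), the translocase that opens the promoter, was at -0.19 and -0.13 in iPS1, -0.09 and -0.09 in iPS4 and 0.00 and 0.11 in iPS5, with a mean of -0.06 ± 0.112 (0.519). The iPS5 arrays were above those of the other lines. Gtf2h1 stood at 0.32 ± 0.154 (0.0738), and Gtf2h2, Gtf2h3 and Gtf2h4 at 0.06, 0.12 and -0.02.

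In the kinase module, Mnat1 fell and its partners did not pass. Mnat1 encodes the assembly factor that holds the kinase Cdk7 and cyclin H together. It was at -0.29 and -0.28 in iPS1, -0.43 and -0.48 in iPS4 and -0.28 and -0.38 in iPS5. All arrays were below 0, and the mean was -0.36 ± 0.0855 (adjusted p = 0.0352). The other 5 probes of Mnat1 were near background and stood at 0.00 to 0.04, and averaging all 6 ended the call, at -0.03. Cdk7, the kinase that phosphorylates the polymerase tail, was at 0.16 and 0.24 in iPS1, 0.17 and 0.32 in iPS4 and 0.11 and -0.05 in iPS5. The iPS5 arrays were the lowest, and the mean was 0.16 ± 0.113 (0.156). Ccnh, the gene of cyclin H, was at 0.06 and 0.19 in iPS1, -0.18 and 0.06 in iPS4 and -0.13 and -0.16 in iPS5. Its sign differed among arrays, and the mean was -0.03 ± 0.14 (0.844). That mean was 0.03 without iPS5 and with a gene's probes averaged, and 0.01 without iPS4 replicate 1.

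**Figure D2:**
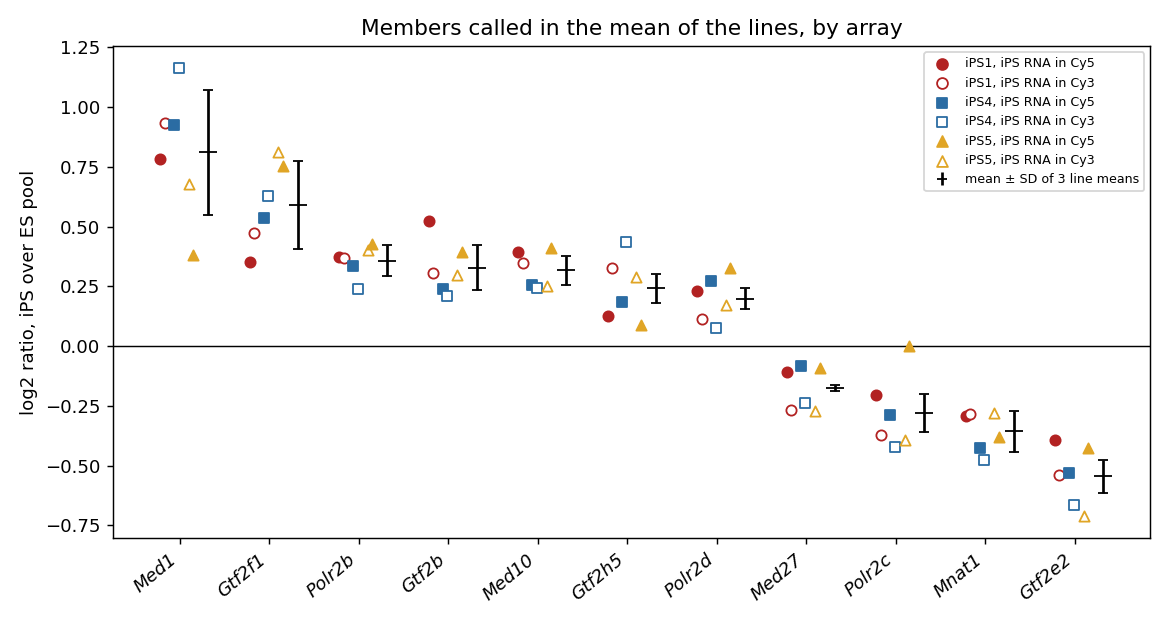
Log2 ratio of iPS over the ES pool (y axis) on each of the 6 arrays for the 11 called genes (x axis); filled symbols have iPS RNA in Cy5, open ones in Cy3, and the black bar is the mean ± SD of the 3 line means. In 10 of the 11 genes the 6 arrays lie on the same side of 0; in Polr2c iPS5 replicate 2 lies at 0.00.

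Mediator held the gene furthest above the ES pool. Med1, in the middle module, encodes the subunit that nuclear receptors bind. Its log2 ratio was 0.78 and 0.93 in iPS1, 0.92 and 1.16 in iPS4 and 0.68 and 0.38 in iPS5. All arrays were above 0, and those of iPS5 were the lowest. The mean was 0.81 ± 0.26 (adjusted p = 0.0397), a 1.75-fold difference. Of its 3 probes, all above background, another was called at 0.65 ± 0.174 (0.0328), while the third stood at -0.10 ± 0.162 (0.467). Averaging the 3 gave 0.45, still called.

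Med10, another middle-module gene, was at 0.39 and 0.35 in iPS1, 0.26 and 0.25 in iPS4 and 0.25 and 0.41 in iPS5. All arrays were above 0, with a mean of 0.32 ± 0.0612 (adjusted p = 0.0325; 0.0527 with no offset). The other 7 genes of the middle module stood between -0.11 (Med31) and 0.12 (Med4), and none passed. Med27, assigned to the tail, was at -0.11 and -0.27 in iPS1, -0.08 and -0.24 in iPS4 and -0.27 and -0.09 in iPS5. It was below 0 on 6 of 6 arrays and the line means were nearly equal, at -0.18 ± 0.0135 (0.0452). Its other probe was lower, at -0.41 ± 0.0744 (0.0284). The call of the brighter probe ended with median centring, with no offset in the background correction and with plain background subtraction.

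The tail was the Mediator module with the lowest median, -0.12 over 9 genes, with 0 called higher and 1 lower. Its members ranged from -0.29 ± 0.13 for Med16 (adjusted p = 0.0711) to 0.19 ± 0.0842 for Med23 (0.0816), whose product binds the activator ELK1. The 7 head genes had a median of 0.16 and 0 calls. Med8 stood highest among them, at 0.40 ± 0.182 (0.0668), and Med11 lowest, at -0.06. Med18 stood at 0.18 ± 0.0593 (0.0674) on its brightest probe and at 0.48 ± 0.14 (0.0382) on the other, which was called. Over all probes, 15 of 121 member probes were called, 10 higher and 5 lower, against 7.68% of all probes. That share includes probes not above background, while 87 of the 121 member probes were above it in both channels of all arrays. The 2 counts are thus not on an equal footing.

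The kinase module had a median of 0.14 over 6 genes and 0 calls. Cdk8, the kinase, was at 0.32 and 0.44 in iPS1, 0.25 and 0.30 in iPS4 and 0.13 and 0.13 in iPS5. All arrays were above 0, in steps from line to line, and the mean was 0.26 ± 0.124 (adjusted p = 0.0782). Ccnc, the gene of its cyclin, was at -0.33 and 0.02 in iPS1, -0.19 and 0.19 in iPS4 and 0.15 and -0.21 in iPS5. Each line was higher with iPS RNA in Cy3, and the mean was -0.06 ± 0.0802 (0.43), or 0.05 with its probes averaged. Med12, whose product activates the kinase, was at 0.22 and 0.07 in iPS1, -0.01 and -0.07 in iPS4 and -0.01 and 0.02 in iPS5. The iPS1 arrays were the highest, and the mean of 0.04 ± 0.0945 (0.674) was -0.02 without iPS1. Med13, which links the module to the core of Mediator, stood at 0.42 ± 0.296 (0.126), its paralogue Med13l at 0.24 ± 0.172 (0.141) and Med12l, the paralogue of Med12, at -0.03 near background. Probe sequences were not used here, so signal shared between paralogues was not tested.

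**Figure D3:**
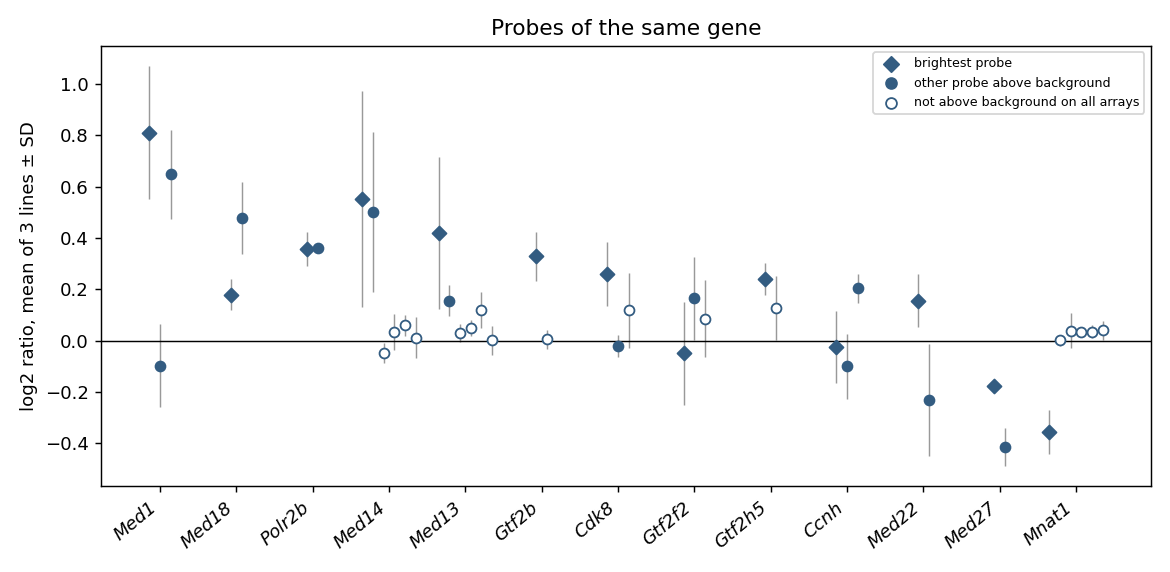
Mean log2 ratio of the 3 lines over the ES pool (y axis; bars are the SD over lines) for every probe of 13 genes with several probes (x axis), chosen after their values were seen to show where probes part. Diamonds are the brightest probes and open circles probes not above background on all arrays; in Mnat1 and Med14 the open circles lie near 0, and in Med1 a probe above background lies at -0.10 beside others at 0.81 and 0.65.

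Probes of a gene did not always agree in sign. Of 22 genes with several probes above background on all arrays in both channels, 8 had probes of differing sign: Ccnc, Ccnh, Cdk8, Gtf2a1, Gtf2f2, Med1, Med13l and Med22. In Med22, of the head, the brightest probe stood at 0.16 and the other at -0.23. Elsewhere the signs parted close to 0, as in Gtf2a1 (-0.08 to 0.11). The share of such genes over the whole array was not counted. Of the 121 member probes, 87 were above background in both channels of all arrays and 0 were saturated.

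The authors' deposited table gives a p-value below 0.05 for 11 of 121 member probes, 8 higher and 3 lower, against 8.39% of all probes. That share was not split by direction. It includes probes not above background, so here too the counts are not on an equal footing. In the authors' deposited table Med1 stood at 0.85 and 0.67 on its 2 called probes, Gtf2f1 at 0.58, Med18 at 0.49, Polr2b at 0.36 and 0.35, Gtf2b at 0.35 and Med10 at 0.31. Lower in the authors' deposited table were Gtf2e2 at -0.55, Med27 at -0.43 on its dimmer probe and Mnat1 at -0.38.

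**Figure D4:**
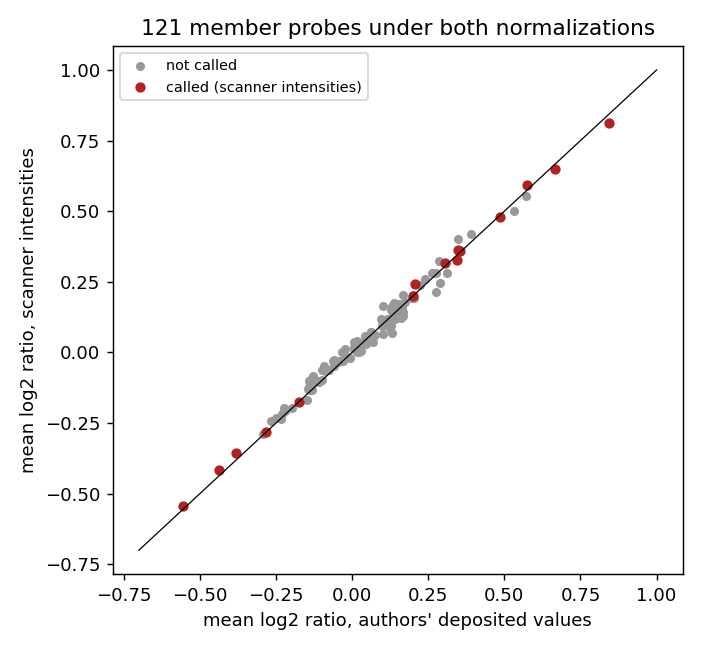
Mean log2 ratio of the 3 lines over the ES pool for all 121 member probes from the scanner intensities (y axis) and from the authors' deposited values (x axis); the line marks equality and red points are the 15 called probes. The points lie close to the line in both directions, from Gtf2e2 at -0.54 and -0.56 to Med1 at 0.81 and 0.84.

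The comparison among the lines asked which members differ between lines from fibroblasts given the same viruses. Med14, the scaffold on which the head, middle and tail of Mediator assemble, differed most. It was at 1.08 and 0.91 in iPS1, 0.53 and 0.46 in iPS4 and 0.12 and 0.20 in iPS5. No arrays of different lines overlapped. The limma F test with a dye term gave an adjusted p of 0.0005. The difference was 0.50 for iPS1 minus iPS4 (adjusted p = 0.00298), 0.83 for iPS1 minus iPS5 (0.000208) and 0.33 for iPS4 minus iPS5 (0.0141). The other bright probe of Med14 was at 0.78, 0.56 and 0.17 in the 3 lines (F test adjusted p = 0.00225), and its 4 dim probes had means of -0.05 to 0.06. In the mean of the lines Med14 stood at 0.55 ± 0.42 and was not called (0.141). Med14 is 1 of 2 X-linked members, with Med12.

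Med13 ran the same way, at 0.50 and 0.97 in iPS1, 0.10 and 0.65 in iPS4 and 0.44 and -0.14 in iPS5. Its arrays overlapped between lines, each line being higher with iPS RNA in Cy3, and the line means were 0.74, 0.37 and 0.15 (F test adjusted p = 0.00178). Its other probe above background was at 0.16, 0.22 and 0.10. Med1 was highest in iPS4 and lowest in iPS5, with iPS4 minus iPS5 at 0.51 (0.00409). Polr2h, a subunit shared by all nuclear polymerases, was at -0.09 and 0.08 in iPS1, -0.23 and -0.15 in iPS4 and -0.39 and -0.41 in iPS5. Its arrays did not overlap between lines, and iPS1 minus iPS5 was 0.40 (0.00441).

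The TFIIF genes ran in opposite order. Gtf2f2 had line means of 0.13, -0.02 and -0.26 in iPS1, iPS4 and iPS5, and Gtf2f1 of 0.41, 0.58 and 0.78. The difference of iPS1 minus iPS5 was 0.40 (adjusted p = 0.00413) for Gtf2f2 and -0.37 (0.00398) for Gtf2f1. Gtf2b and Gtf2e2 did not pass the F test (0.159 and 0.301), which does not show that they were equal.

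In all, 18 of 63 members (28.6%) passed the F test, against 25.2% of all genes. Among genes above background in both channels of all arrays it was 34.4%, and among the 60 members that met this criterion 30.0%. The others were Cdk8, Gtf2a1, Gtf2a2, Gtf2h1, Med7, Med8, Med13l, Med16, Med21, Med24, Med30 and Polr2e. Of the 18, iPS1 was the highest in 8 and the lowest in 5, iPS4 the highest in 5 and the lowest in 3, and iPS5 the highest in 5 and the lowest in 10. This order was not counted over all genes. Pairwise, 5 members differed between iPS1 and iPS4, 3 higher and 2 lower in iPS1, against 12.0% of all genes (7.56% higher, 4.49% lower). Between iPS1 and iPS5 17 differed, 10 higher and 7 lower in iPS1, against 23.0% (12.2% higher, 10.8% lower). Between iPS4 and iPS5 8 differed, 6 higher and 2 lower in iPS4, against 13.3% (5.94% higher, 7.4% lower).

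**Figure D5:**
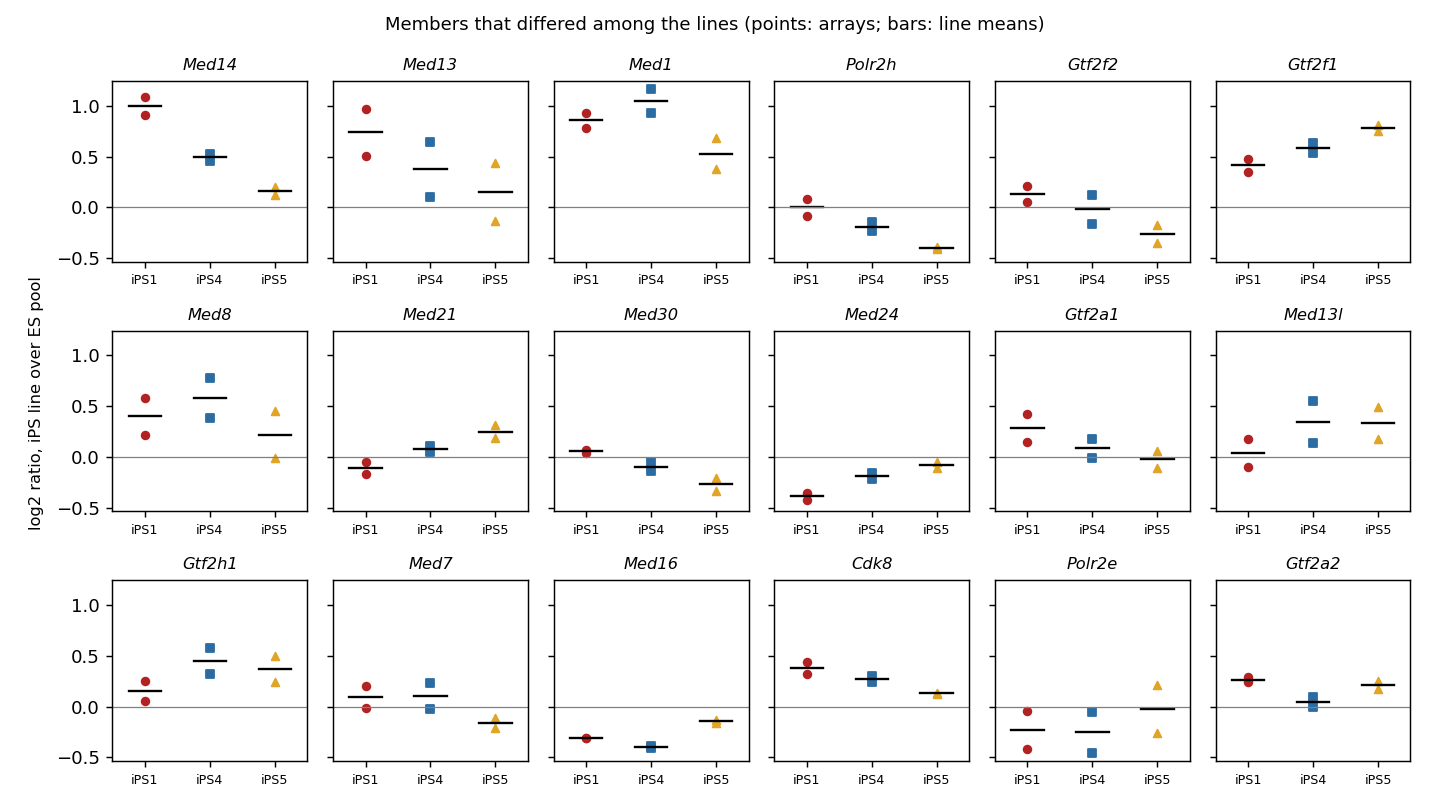
Log2 ratio over the ES pool (y axis) in iPS1, iPS4 and iPS5 (x axis) for the 18 members that passed the F test among the lines, in order of the range of their line means; points are arrays and bars line means. Med14 steps down over 0.83 without overlap of the lines, while the points of Med13 spread within each line.

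These tests rest on the spread between 2 arrays of a line, which may be technical, and on their processing. The number of members past the F test was 14 with the authors' deposited log2 ratios (21.4% of all genes), 13 of them among the 18, but 1 with median centring or without the dye term, and 0 with no offset or with plain background subtraction (15 at an unadjusted p under 0.05 in limma for each). Med14 was the gene left by median centring (adjusted p = 0.034) and by leaving out the dye term (0.0174), and stood at 0.0929 with no offset and 0.0542 with plain subtraction. Leaving out an array of iPS1 left 5 or 4 members, and leaving out an array of iPS4 9 or 8; Med1, Med13 and Med14 passed in all 4. Leaving out an array of iPS5 gave 26 or 29. With a gene's probes averaged Med14 passed (F test adjusted p = 0.0166), but Med1 (0.305) and Med13 (0.176) did not. With arrays scaled Med14 (0.00196) and Med13 (0.0377) passed, and Med1 (0.109) did not. Other measures differed between the lines as well. In iPS1, iPS4 and iPS5 the primitive streak markers had medians of 1.60, 0.84 and 0.09, in the order of Med14 and Med13, and the fibroblast markers -0.82, -0.60 and -0.26, in the opposite order. The iPS5 arrays were dimmer, with 47.4% and 65.7% of probes above background in the iPS channel, against 65.2% to 87.1% for the other lines. The part of these in the result was not tested.

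Set singly against the ES pool, with the spread of duplicate arrays, each line had more calls. In iPS1 27 members were higher and 11 lower (60.3%), against 42.7% of all genes (21.5% higher, 21.2% lower). In iPS4 25 were higher and 13 lower (60.3%), against 43.7% (20.6% higher, 23.2% lower). In iPS5 23 were higher and 11 lower (54.0%), against 27.0% (13.9% higher, 13.0% lower). Among expressed genes the shares were 56.6%, 57.7% and 40.6%, and among the 60 expressed members 61.7%, 60% and 55%. The lines share the ES pool, so their calls are not independent. All 11 genes called in the mean were called with the same sign in each line. They were picked by the mean of these same arrays, so this is no separate support for them. With no offset the calls were 14, 13 and 19, and with median centring 10, 9 and 2.

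Other genes that act on the polymerase, in its pausing, elongation or assembly, were examined as a list. Of 42 pausing, elongation and assembly genes 41 were analysed, and 9 rose and 1 fell (24.4%), beside 10.2% of all genes and 16.0% of expressed genes (8.21% higher, 7.77% lower). The list's median was 0.16. The 4 with the smallest p were Rtf1, a Paf1 complex component, at 0.47 ± 0.0365 (adjusted p = 0.0201), Aff1, a scaffold of the super elongation complex, at 0.61 ± 0.115 (0.025), Cdk12 at 0.40 ± 0.103 (0.0352) and Cdk9 at 0.28 ± 0.0626 (0.0372). Cdk12 and Cdk9 encode kinases of the polymerase tail. All 4 were above 0 on 6 of 6 arrays. The gene that fell was the elongation factor Ell, at -0.28 ± 0.0614 (0.0377). The count was 5 with a gene's probes averaged and 0 without iPS1, without iPS4 or without iPS5 replicate 1 (23, 18 and 20 at an unadjusted p under 0.05 in limma).

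Of 14 genes named for subunits of RNA polymerases I and III, 2 rose and 0 fell (14.3%), beside 10.2% of all genes and 16.0% of expressed genes, with a median of 0.09. Polr1e, of polymerase I, was at 0.29 ± 0.0048 (adjusted p = 0.0264) and Polr3b, the homologue of Polr2b in polymerase III, at 0.32 ± 0.0571 (0.0315). Next came Polr3f at 0.48 ± 0.275 (0.0916) and Polr3k at 0.19 ± 0.125 (0.131), which did not pass. Both calls were lost without iPS1, without iPS4 or without iPS5 replicate 1 (6, 3 and 4 genes at an unadjusted p under 0.05 in limma).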

How the data were processed

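Each of 6 arrays compared RNA of 1 iPS line with the ES pool. The deposited scanner output holds an intensity and a local background for each spot and channel, not normalised per the file headers. The authors also deposited log2 ratios, whose direction (iPS over ES) was checked on each array and whose normalization is not given in the sources used here. The authors' final table holds a mean log2 ratio and a p-value per probe, deposited without the test being named. Intensities were background-corrected (normexp, offset 50) and loess-normalised within arrays in limma 3.58.1 (R 4.3.3), with control spots left out of the curve. Above background meant over percentile 95 of a dim control with 604 spots per array. Arrays of a line were averaged, and limma's moderated test compared the 3 line means with 0 (two-sided). In the F test, the pairs and the single lines, all 6 arrays were fitted with a dye term. P-values were adjusted (Benjamini-Hochberg) over all 41174 probes. The small number of arrays limits the precision, and with 1 ES pool the spread between ES cultures is not covered. The tests were checked on simulated data. The members, lists and rule for named genes (every called member, the 6 with the largest line range in the F test, a fixed set of 14 core genes and the 4 smallest p of each other list) were chosen with earlier results of these data known. On the elongation list 1 gene is not reported here. Alternatives varied the background correction, normalization, filter, probe choice, replicate unit, dye term and left-out lines or arrays.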

Additional observations from a re-analysis of the deposited data

Results flagged for a closer look

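The lines differed from each other, by the F test of equal line coefficients, in 7 of the genes named above, and the range of the line means was 0.83 for Med14, 0.59 for Med13, 0.51 for Med1, 0.40 for Polr2h, 0.40 for Gtf2f2, 0.37 for Gtf2f1 and 0.25 for Cdk8 on the log2 scale. The adjusted p (limma) was 0.0005, 0.00178, 0.0036, 0.00972, 0.00882, 0.00875 and 0.0483, in this order. With the authors' deposited log2 ratios the test gave 0.000592, 0.00555, 0.00724, 0.0123, 0.0127, 0.0127 and 0.0621. In Gtf2f1 iPS5 was the highest line, in Med1 iPS4, and in the other 5 iPS1. Of these 7 genes only Med14 passed with median centring (F test adjusted p = 0.034) or without the dye term (0.0174). With no offset or plain background subtraction 0 members passed. Over all genes 25.2% passed the F test in the main fit.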

How the results depend on the processing

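All 23 members followed through 19 alternatives kept their direction except Ccnc, Ccnh, Gtf2f2, Med12 and Polr2a, none of them called. With the authors' deposited ratios, which come from the same arrays, 11 of the 11 calls held. They also held without dim probes and with all 6 arrays fitted, but these settings test them little. Leaving out dim probes did not change their ratios and only left fewer probes to adjust for. Fitting all 6 arrays counts the 2 arrays of a line as replicates. The cause of changes was not tested. With gene means (all probes averaged) Ccnc turned to 0.0474, Ccnh to 0.0265 and Gtf2f2 to 0.0672. On leaving out a line or an array, Ccnc ranged from -0.125 to 0.00142 (above 0 without iPS4 replicate 1), Ccnh from -0.102 to 0.0347 (above 0 without iPS5 and, at 0.0147, without iPS4 replicate 1), Gtf2f2 from -0.141 to 0.0578 (above 0 without iPS5), Med12 from -0.0151 (without iPS1) to 0.0755, and Polr2a from -0.0261 (without iPS1 replicate 1; -0.0098 without iPS4 replicate 1) to 0.158. The 11 members called against the ES pool became 7 with offset 0, 36 with 6 arrays and 28 with the line as a random block, and 0 with the ES pool as a sample (13 at an unadjusted p under 0.05 in limma). Leaving out a line or an array gave 0 to 20: 0 without iPS1 or iPS4, 1 without iPS4 replicate 1 or iPS5 replicate 1, and 20 without iPS5 replicate 2. For the 10 elongation genes the counts were 5 with gene means, 25 with 6 arrays, 22 with the random block, 0 with the ES pool as a sample (14 unadjusted) and 0 to 17 on leaving out a line or array; for the 2 genes of polymerases I and III they were 4, 4 and 0 (2 unadjusted) under the last 3 settings and 0 to 4. The 18 members that differed among the lines became 0 with offset 0, 0 with plain subtraction, 1 with median centring and 1 without the dye term, and 4 to 29 on leaving out an array. Against the ES pool, iPS1 had 38 calls: 14 with offset 0, 17 with plain subtraction, 10 with median centring, 25 with arrays scaled, 17 without the dye term, 65 over every probe, and 14 to 45 on leaving out an array (14 and 17 without its own). iPS4 had 38: 13, 19, 9 with the same first 3 settings, 18 without the dye term, 66 over every probe, and 19 to 42 on leaving out an array (19 and 20 without its own). iPS5 had 34: 19, 19, 2 with those settings, 10 without the dye term, and 21 (without its replicate 1) to 32. Between iPS1 and iPS4 the 5 became 0 with offset 0, plain subtraction, median centring and no dye term, 1 with arrays scaled, 3 with the authors' deposited ratios, 3 with gene means, and 0 to 20 on leaving out an array. Between iPS1 and iPS5 the 17 became 1, 1, 2 and 1 under the first 4 of these, 28 over every probe and 3 to 22 on leaving out an array. Between iPS4 and iPS5 the 8 became 0 under each of the 4, 5 with the authors' deposited ratios, 14 over every probe and 0 to 13 on leaving out an array. In limma 4 to 9 members passed an unadjusted p under 0.05 wherever a pair had 0 calls under these 4 settings. No paired analysis was possible because the labels number no replicates that pair lines. A slide or scan block was not run, as no shared slide or scan is given in the files used. The dim iPS5 arrays limit what can be told for dim probes.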
